A study of Homo sapiens with 8 samples.

Results

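Transcripts of 10 genes of the S100 calcium-binding family were followed through human colorectal cancer (CRC) and intestinal epithelial cell lines. The members, S100A2, S100A3, S100A4, S100A6, S100A10, S100A11, S100A13, S100A14, S100A16 and S100P, were chosen by symbol among 54261 genes, and every one of them was found and tested. Total RNA depleted of ribosomal RNA had been sequenced in 8 libraries from 5 established lines. The normal group held the intestinal epithelial lines NCM460 and HIEC6, the CRC group held untreated DLD1, HCT116 and HCT8, and the hypoxia group held the same 3 CRC lines under hypoxia, whose oxygen level and duration are not given in the sources used here. All cultures were labelled passage P5 in DMEM. Each line gave 1 library per condition, so that the replicates of a group were different lines. Without a line term in the fit, a p-value was therefore measured against the spread between lines. With a line term, it was measured against what remained after line and treatment were fitted. In comparisons between CRC lines, the untreated and hypoxia libraries of a line took the place of replicates.

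S100 proteins are small calcium sensors built around a pair of EF-hand calcium-binding loops. Most form dimers that open a binding face when calcium rises and then dock onto partners such as annexins or myosin, and several act outside the cell on receptors such as RAGE. S100A10 is the exception, since its loops no longer bind calcium and it stays bound to annexin A2. In the gut, S100A4 is known for its link to cell motility and metastasis, S100P for its high level in many carcinomas, and S100A14 and S100A16 as epithelial members.

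On the GRCh37 annotation, 9 members lay on the minus strand of chromosome 1. S100A6, S100A4, S100A3, S100A2, S100A16, S100A14 and S100A13 filled a stretch of 96.8 kb, and S100A10 and S100A11 shared a second stretch of 65.0 kb that lay 1487 kb away. S100P stood alone on the plus strand at chr4:6695605-6698897. S100A3 lay inside the annotated span of S100A4 on the same strand, and S100A13 overlapped S100A1 on the opposite strand. How the reads of overlapping genes were assigned is not given in the sources used here, so low values of S100A3 may hold reads of S100A4.

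Promoter windows from 250 bases before to 50 bases after each annotated start were read from RefSeq (GRCh38.p14), whose positions are not interchangeable with the GRCh37 positions of the genes. All 10 members had a window, 14 in all. The 4 windows printed here belong to S100A6 and S100A10, which between them took the first rank by level per transcript length in every library, and to S100A4 and S100P, whose levels differed strongly between the CRC lines. Capitals mark matches to the core of the hypoxia response element (ACGTG or GCGTG on either strand) and to the TATA box word TATAAA on the given strand.
S100A6, chr1:153535942-153536241, minus strand: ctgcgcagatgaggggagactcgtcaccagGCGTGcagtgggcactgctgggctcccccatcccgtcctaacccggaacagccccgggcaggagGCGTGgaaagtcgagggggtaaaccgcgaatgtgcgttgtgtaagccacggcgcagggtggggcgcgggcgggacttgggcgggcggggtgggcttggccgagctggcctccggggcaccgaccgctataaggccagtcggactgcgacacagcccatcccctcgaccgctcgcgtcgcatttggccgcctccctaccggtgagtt
S100A10, chr1:151993810-151994109, minus strand: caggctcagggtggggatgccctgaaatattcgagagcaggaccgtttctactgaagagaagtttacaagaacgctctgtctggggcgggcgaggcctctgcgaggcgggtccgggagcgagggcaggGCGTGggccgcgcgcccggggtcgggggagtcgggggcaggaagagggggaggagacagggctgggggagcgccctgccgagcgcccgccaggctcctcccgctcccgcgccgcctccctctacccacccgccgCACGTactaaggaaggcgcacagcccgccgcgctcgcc
S100A4, chr1:153545757-153546056, minus strand: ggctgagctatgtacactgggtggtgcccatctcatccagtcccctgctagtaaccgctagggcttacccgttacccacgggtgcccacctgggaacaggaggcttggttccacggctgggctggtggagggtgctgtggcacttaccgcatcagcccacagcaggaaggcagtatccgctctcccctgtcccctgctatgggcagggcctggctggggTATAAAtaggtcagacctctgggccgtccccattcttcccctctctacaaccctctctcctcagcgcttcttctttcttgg
S100P, chr4:6693628-6693927, plus strand: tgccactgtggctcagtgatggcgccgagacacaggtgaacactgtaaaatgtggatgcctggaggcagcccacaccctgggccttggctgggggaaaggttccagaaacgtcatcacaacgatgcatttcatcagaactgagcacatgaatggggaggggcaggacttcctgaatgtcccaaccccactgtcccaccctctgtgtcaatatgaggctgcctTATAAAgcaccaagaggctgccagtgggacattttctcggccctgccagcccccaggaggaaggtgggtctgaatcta
The windows of S100A6 and S100A10 were GC-rich, with 31 and 32 CG dinucleotides against a median of 14 over all 35116 windows, and each held 2 hypoxia element cores and no TATAAA. The windows of S100A4 and S100P held 8 and 5 CG dinucleotides, no hypoxia element core and 1 TATAAA each. TATAAA was found in 7.33% of all windows. A hypoxia element core was found in 7 of the 14 windows of the members, which belonged to 6 members, and in 48.4% of all windows, so the members did not stand out by this word. The AP-1 word TGAGTCA, searched on both strands, occurred once in the window of S100A3 and once in 1 of the windows of S100A2, and in 4.95% of all windows. No searched words overlapped in the windows of the members. A match is a description of the letters and was not tested for binding.

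The libraries held 45519306 to 57374239 counts, and 3 counts, taken as the detection limit, corresponded to 0.0523 to 0.0659 CPM (counts per 1000000 counts of the library). The library labelled NCM460 was close to that of untreated HCT116, with a Pearson correlation of 0.994 over all genes on the log2(CPM + 1) scale against 0.980 between HCT116 and its own hypoxia library, and the comparison with the normal lines is therefore given with and without it. HIEC6 stood apart in the other direction. It reached 1 CPM for 5 of 10 epithelial markers (8 to 10 of 10 in the other libraries), with EPCAM at 0.176 CPM and CDH1 at 3.03 CPM. Its KRT8 and KRT18 levels, 4290 and 3725 CPM, were not low, and its summed epithelial level of 8085 CPM exceeded that of NCM460 (5928 CPM) and HCT116 (4854 CPM). Its summed level of 10 mesenchymal markers was 1402 CPM against 14.6 to 175 CPM elsewhere, mostly from VIM at 1223 CPM. Summed myeloid markers, which would come with cells that make S100A8 and S100A9, were at 4.10 to 22.8 CPM. The hypoxia libraries shared 0 run labels with the untreated CRC libraries, so that sequencing run and treatment cannot be told apart. The part of these features in the values of the S100 genes was not tested.

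The 10 members together took up 0.116% to 0.189% of the counts, with the lowest sum in untreated HCT8 (1159 CPM) and the highest in HCT116 under hypoxia (1890 CPM). Divided by the length of the canonical transcript, which allows levels to be compared between genes, S100A6 and S100A10 made up 51.5% to 71.5% of the family in every library. S100A6, a growth-regulated member also called calcyclin, ranked first in NCM460, HIEC6, both HCT116 libraries and HCT8 under hypoxia, and S100A10 ranked first in both DLD1 libraries and in untreated HCT8. The difference in make-up was large between lines: S100A6 took up 59.2% of the family level per kb in HCT116 and 22.8% in DLD1, and S100A10 took up 5.47% in HCT116 and 38.6% in DLD1. S100A4 ranked second in both HCT116 libraries and eighth in untreated DLD1, and S100A2 and S100A3 each stayed at or under 0.187% of the family in every library.

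**Figure D1:**
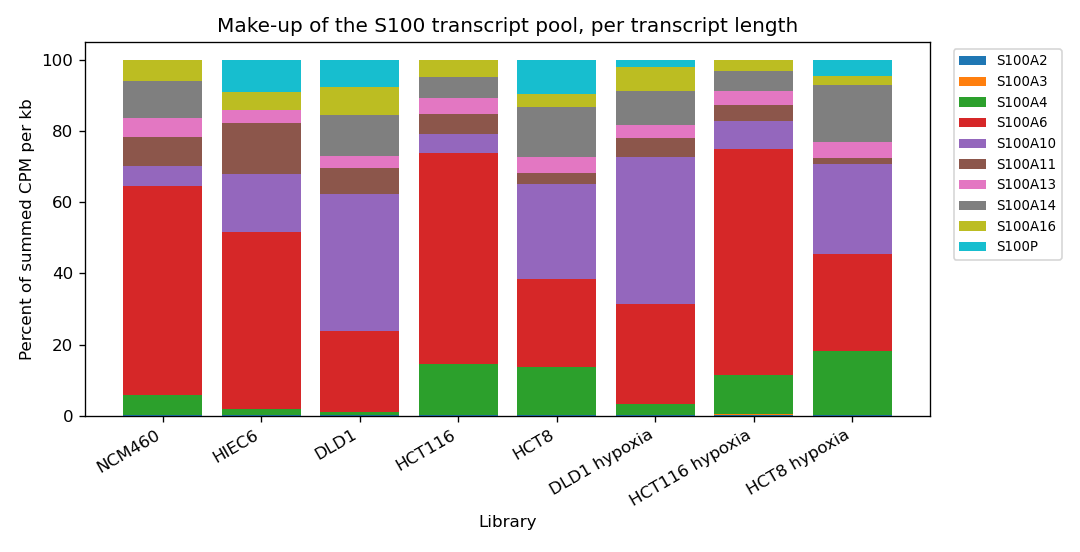
Share of each member (percent of the family's summed CPM per kb of canonical transcript, vertical axis) in each of the 8 libraries (horizontal axis). S100A6 and S100A10 together fill 51.5% to 71.5% of each bar, with S100A6 at 59.2% in HCT116 and S100A10 at 38.6% in DLD1.

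The levels of single members are given in CPM of the column total, and their 95% intervals are exact and cover counting error only. To ask which members differed between the CRC lines, the untreated and the hypoxia library of each line were fitted together by edgeR with a treatment and a line term, a test added after the data were seen. By this test 9 of the 10 members differed between the 3 CRC lines, against 39% of the 21045 genes tested. S100A14 was the member that did not pass. Leaving out 1 library at a time kept 6 to 9 members past the threshold of 0.05. In the same fits 4547 of 20376 to 10147 of 20114 genes passed, with 5183 of 20448 where 6 members did. The members lost at some step besides S100A14 were S100A2, S100A13 and S100A16.

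S100P, a secreted and cytoplasmic member that binds ezrin, had the widest range. Its level was 0.813 CPM in NCM460 (40 counts), 129 CPM in HIEC6 (7305 counts), 66.4 CPM in DLD1, 0.0383 CPM in HCT116 (2 counts) and 81.7 CPM in HCT8. Under hypoxia it was 23.3 CPM in DLD1, 0.0361 CPM in HCT116 (2 counts) and 59.5 CPM in HCT8. It was thus under the detection limit in both HCT116 libraries and low in NCM460, and HIEC6, a normal line, was the highest untreated library. The ratio of HIEC6 to HCT116 was 3365 (95% counting interval 931 to 27788). The adjusted p of the edgeR line test was 1.37e-05, and HCT8 and DLD1 did not differ past the threshold from each other (log2 fold change 0.66 ± 0.30 SE, adjusted p = 0.178).

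S100A14 (chr1:153586731-153589462), a membrane-associated epithelial member, showed the second widest range, which came from 1 line. It stood at 297 CPM in NCM460, 0.353 CPM in HIEC6 (20 counts), 229 CPM in DLD1, 177 CPM in HCT116 and 272 CPM in HCT8, and under hypoxia at 264, 212 and 490 CPM in the same 3 CRC lines. All libraries but HIEC6 lay within 177 to 490 CPM, and NCM460 exceeded HIEC6 by 842-fold (95% counting interval 545 to 1378). HIEC6 was also the library with low EPCAM and CDH1, although KRT8, KRT18 and ELF3 (64.9 CPM, beside 65.0 CPM in HCT116) of the same marker list were not low in it. Among the CRC lines the adjusted p of the line test was 0.158, and HCT8 exceeded HCT116 by 0.55 ± 0.23 (SE) on the log2 scale with an adjusted p of 0.110.

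S100A4 (chr1:153516089-153522612), which binds non-muscle myosin heavy chain, was the member that split DLD1 from the other CRC lines. Its level was 76.6 CPM in NCM460, 26.0 CPM in HIEC6, 8.51 CPM in DLD1, 202 CPM in HCT116 and 128 CPM in HCT8, and under hypoxia 41.2, 205 and 273 CPM in DLD1, HCT116 and HCT8. DLD1 was lowest in both conditions. HCT116 exceeded DLD1 by 3.62 ± 0.44 (SE) on the log2 scale (adjusted p = 0.000568) and HCT8 exceeded DLD1 by 3.06 ± 0.43 (adjusted p = 0.00243), while HCT8 and HCT116 differed by -0.56 ± 0.39 with an adjusted p of 0.326. S100A4 was also the member in which NCM460 fell farthest below HCT116, at a ratio of 0.379 (95% counting interval 0.365 to 0.393). Of the other members NCM460 exceeded HCT116 by 1.68-fold in S100A14 and by 1.42-fold in S100A11, and the remaining ratios apart from S100P ran from 0.919 to 1.20.

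S100A6 (chr1:153507075-153508720) and S100A10 (chr1:151955391-151966335) ran in opposite order across the CRC lines. S100A6 was at 679 CPM in NCM460, 662 CPM in HIEC6, 186 CPM in DLD1, 706 CPM in HCT116 and 199 CPM in HCT8, and under hypoxia at 315, 986 and 343 CPM in DLD1, HCT116 and HCT8. S100A10, the annexin A2 light chain, was at 104 CPM in NCM460, 335 CPM in HIEC6, 487 CPM in DLD1, 101 CPM in HCT116 and 327 CPM in HCT8, and under hypoxia at 721, 193 and 495 CPM. HCT116 was therefore the highest CRC line for S100A6 and the lowest for S100A10 in both conditions. On the log2 scale HCT116 minus DLD1 was 2.0 ± 0.21 (SE) for S100A6 and -1.85 ± 0.25 for S100A10, with adjusted p of 0.000246 and 0.00101. HCT8 and DLD1 did not differ past the threshold in S100A6 (-0.04 ± 0.20, adjusted p = 0.923) or in S100A10 (-0.71 ± 0.25, adjusted p = 0.0896). NCM460 and HCT116 overlapped in their counting intervals for S100A10, as did HIEC6 and HCT8.

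S100A11 (chr1:152004982-152020383), a partner of annexin A1, and S100A16 (chr1:153579362-153585621) shared a low point in HCT8. S100A11 was at 120 CPM in NCM460, 248 CPM in HIEC6, 77.7 CPM in DLD1, 85.0 CPM in HCT116 and 31.9 CPM in HCT8, and under hypoxia at 74.6, 89.4 and 29.0 CPM. S100A16 was at 179 CPM in NCM460, 182 CPM in HIEC6, 173 CPM in DLD1, 149 CPM in HCT116 and 79.7 CPM in HCT8, and under hypoxia at 204, 126 and 91.7 CPM. HCT8 was the lowest line of both genes in both conditions. HCT8 minus DLD1 was -1.47 ± 0.23 (SE) for S100A11 and -1.29 ± 0.20 for S100A16 on the log2 scale, with adjusted p of 0.00463 and 0.00473. The line test of S100A16 lost its call without untreated HCT8 (adjusted p = 0.082) or without HCT8 under hypoxia (adjusted p = 0.0877). In the order of S100A16 the counting intervals of HIEC6 and NCM460 overlapped, as did those of NCM460 and DLD1.

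S100A13 (chr1:153591263-153603836), which takes part in the release of FGF1 and interleukin 1 alpha, varied least together with S100A16. It was at 67.2 CPM in NCM460, 54.2 CPM in HIEC6, 29.5 CPM in DLD1, 58.8 CPM in HCT116 and 40.4 CPM in HCT8, and under hypoxia at 45.7, 67.4 and 64.9 CPM. The highest untreated line, NCM460, exceeded the lowest, DLD1, by 2.28-fold. HCT116 exceeded DLD1 by 1.0 ± 0.21 (SE) on the log2 scale with an adjusted p of 0.00892, and the line test of S100A13 (adjusted p = 0.0153) lost its call when any of 4 libraries was left out, which were both DLD1 libraries and both HCT8 libraries.

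S100A2 (chr1:153533584-153540366), known mainly from epithelial cells, and S100A3 (chr1:153519805-153521734), best known from hair follicles, were the rare ones. S100A2 was at 4.88 CPM in NCM460, 5.27 CPM in HIEC6, 1.84 CPM in DLD1, 4.50 CPM in HCT116 and 0.646 CPM in HCT8, and under hypoxia at 2.56, 6.03 and 1.98 CPM. S100A3 was at 1.95 CPM in NCM460, 1.25 CPM in HIEC6, 0.547 CPM in DLD1, 2.12 CPM in HCT116 and 0.247 CPM in HCT8 (13 counts), and under hypoxia at 2.09, 4.62 and 0.220 CPM. Both were highest among the CRC lines in HCT116, and counting intervals overlapped between HIEC6, NCM460 and HCT116 in turn for S100A2, and between HCT116 and NCM460 and between DLD1 and HCT8 for S100A3. HCT8 minus HCT116 was -2.52 ± 0.48 (SE) for S100A2 and -4.03 ± 0.69 for S100A3 on the log2 scale, with adjusted p of 0.00648 and 0.00371. The line test of S100A2 lost its call without untreated HCT8 (adjusted p = 0.0517).

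**Figure D2:**
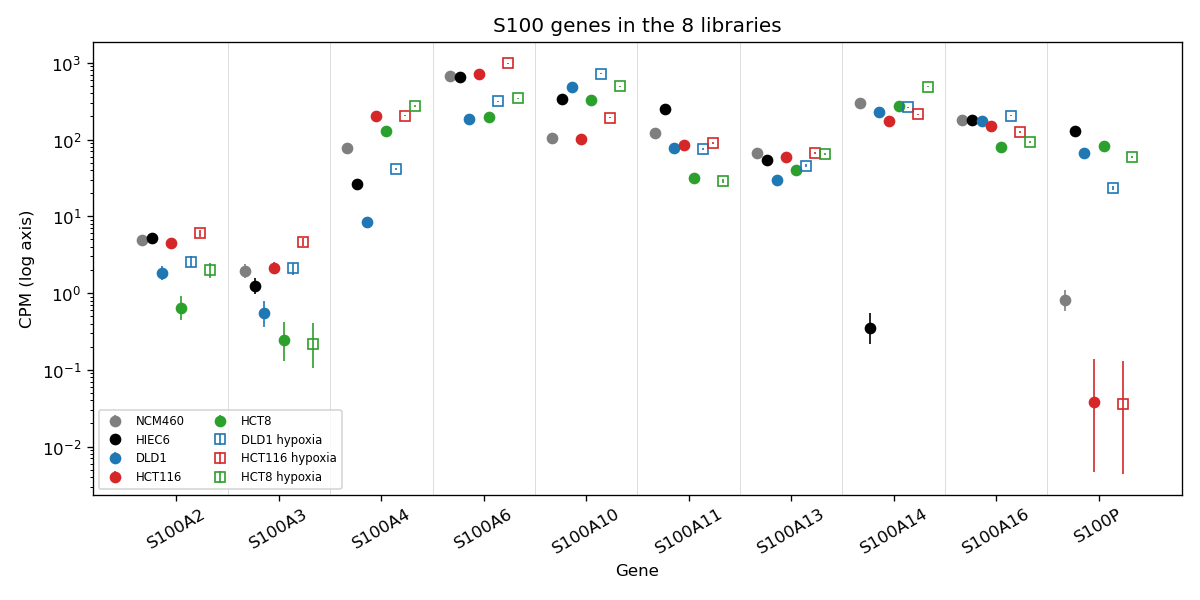
Level of each member (CPM of the column total on a log axis, with 95% counting intervals) in the 8 libraries; filled circles are untreated libraries, open squares are hypoxia libraries, and colours mark the lines. HIEC6 falls to 0.353 CPM for S100A14 and both HCT116 libraries lie at 0.0383 CPM or below for S100P.

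Pair by pair, 5 members differed past the threshold between HCT116 and DLD1 besides S100P (S100A2, S100A4, S100A6, S100A10 and S100A13, against 32% of all genes), and 3 between HCT8 and DLD1 (S100A4, S100A11 and S100A16, against 15.7%). Between HCT8 and HCT116, 7 members differed besides S100P (S100A2, S100A3, S100A6, S100A10, S100A11, S100A13 and S100A16, against 27%). Fitted fold changes of S100P that involve HCT116 depend on the small count added by the fit, because HCT116 held 2 counts in each library, and are not given as sizes.

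**Figure D3:**
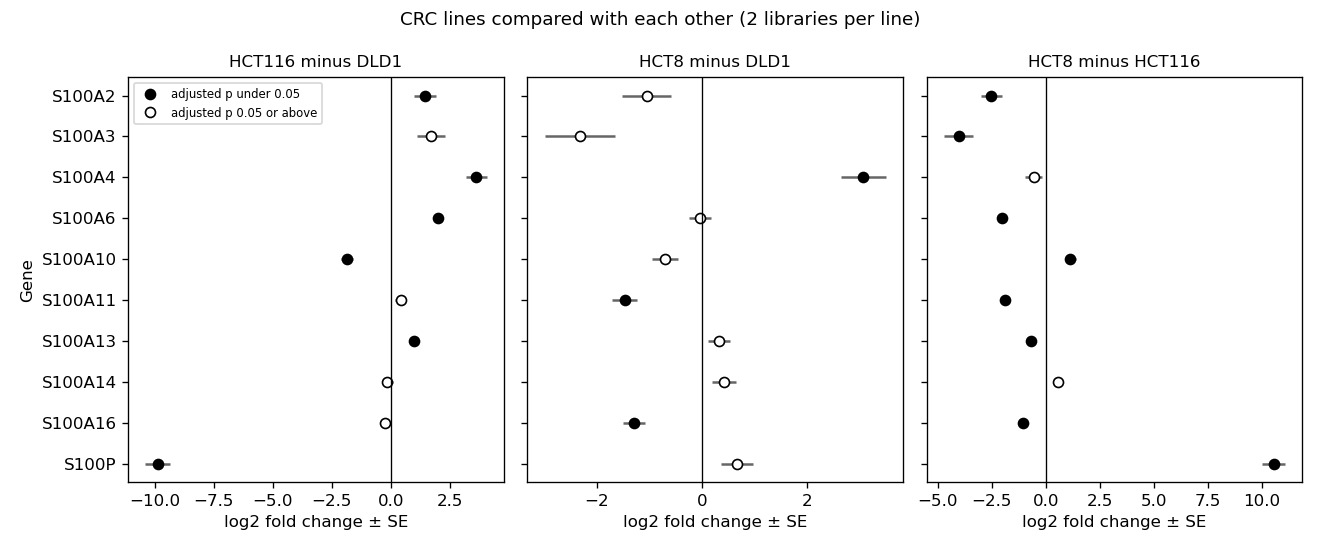
Fitted log2 fold changes between CRC lines (horizontal axes, which differ in scale between panels, with bars of 1 SE) for each member (vertical axis); filled circles have an adjusted p under 0.05. S100A4 lies at 3.62 and 3.06 in the panels against DLD1, S100A6 and S100A10 lie on opposite sides in both panels with HCT116, and the far points of S100P rest on 2 counts per HCT116 library.

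CRC lines were then compared with the normal lines. S100A11, S100A2 and S100A16 were lower in every CRC line than in both normal lines, which also held for 4.99% of the 19964 genes tested, and 0 members were higher in every CRC line (13.2% of all genes). Against HIEC6 alone, without NCM460, S100P joined the lower ones (4 of 10 members, 22.7% of 18994 genes) and S100A14 was higher in every CRC line (1 of 10 members, 43.1% of all genes). S100A11 averaged 184 ± 90.4 CPM (SD, n = 2) in the normal lines and 64.9 ± 28.8 CPM (n = 3) in the CRC lines. S100A2 averaged 5.08 ± 0.278 CPM and 2.33 ± 1.97 CPM, and S100A16 averaged 181 ± 1.91 CPM and 134 ± 48.5 CPM. For S100A16 the normal lines and DLD1 lay close together, and the lower mean of the CRC group came mostly from HCT8. In edgeR 0 of 10 members and 0% of all genes passed. The log2 fold changes of CRC minus normal ran from -1.70 ± 0.61 (SE) for S100A11 to 1.0 ± 1.25 for S100A4. In edgeR 1 member (S100A11) had an unadjusted p under 0.05, as did 542 of the 19964 genes. DESeq2 called 0 members and 143 genes.

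The direction of several members hung on single normal lines. In the fit 3 members had a positive and 7 a negative value, with a median log2 fold change of -0.69 beside -0.0048 over all genes. Without NCM460 the normal group is HIEC6 alone, so that the spread came from the CRC lines and HIEC6 was assumed to vary as they did. The log2 fold change of S100A14 then went from 0.49 to 9.04 (adjusted p = 0.101), that of S100A11 went to -2.17 (adjusted p = 0.272), that of S100A10 turned from 0.23 to -0.42, and 0% of all genes passed, with 2 members and 2994 genes at an unadjusted p under 0.05. Without HIEC6 the log2 fold change of S100A14 turned to -0.51, that of S100P turned from -0.70 to 5.77, and that of S100A10 became 1.44. S100A14 and S100P thus changed sign without HIEC6, in which S100A14 was lowest and S100P highest.

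Hypoxia was compared with no treatment within each line. S100A6, S100A10, S100A13, S100A2, S100A4 and S100A14 were higher under hypoxia in all 3 pairs by column totals, which held for 6 of 10 members and for 16.2% of the 21045 genes tested. With totals scaled by TMM, S100A16 joined them, at 7 of 10 members and 21% of all genes. By column totals 26.4% of all genes, and after TMM scaling 22.7%, were lower in all 3 pairs. Among the members S100P was lower in DLD1 and HCT8 and could not be judged in HCT116, with 2 counts in each library. In the HCT116 pair the median of all genes stood at -0.348 on the log2 scale by column totals, and TMM scaling moved every gene of that pair up by 0.338.

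The genes chosen to check the treatment were higher under hypoxia in nearly every pair. The list held 16 hypoxia response genes such as CA9, VEGFA and NDRG1. Of those with a ratio, 14 of 15 were higher in DLD1, 16 of 16 in HCT116 and 15 of 15 in HCT8. The median log2 differences were 1.92, 3.37 and 2.73. With the line as a block, edgeR called 12 of the 16, all higher, beside 0.95% of all genes. The shifts of the members were smaller: 8 of 10 were higher in DLD1 (median log2 difference 0.52, against -0.0034 over all genes), 8 of 9 in HCT116 (0.26, against -0.348) and 7 of 10 in HCT8 (0.64, against 0.0174). Marker sums of other lists shifted beside them. The mesenchymal sum went from 14.6 to 95.7 CPM in DLD1, from 44.7 to 175 CPM in HCT116 and from 23.9 to 32.8 CPM in HCT8. The higher sum in HCT8 came mostly from COL1A1 and PDGFRB. FN1 and LUM were also higher there, but VIM, COL1A2, COL3A1, ACTA2, DCN and THY1 were lower. Mesenchymal markers at 1 CPM or more went from 6 to 3 in HCT8, from 5 to 7 in DLD1 and from 5 to 6 in HCT116. With the line as a block 8 of 9 tested mesenchymal markers were higher (median log2 fold change 1.58). With that block edgeR called 1 of the 9 (0.95% of all genes) and DESeq2 called 4 (7.92%). The epithelial sum was higher in each pair as well, with 11675 and 13868 CPM in DLD1, 4854 and 6420 CPM in HCT116 and 8845 and 14455 CPM in HCT8. Keratins make up most of this sum, and KRT19 went from 738 to 1907, from 855 to 2075 and from 781 to 2392 CPM. EPCAM was lower in each pair (651 and 524, 275 and 198, 368 and 331 CPM). With the line as a block 9 of the 10 epithelial markers had a higher and 1 a lower fitted level (52.2% of all genes were higher). The part of these shifts in the values of the S100 genes was not tested.

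S100A6 and S100A10 were higher under hypoxia in each line. For S100A6 the folds of hypoxia over untreated were 1.69, 1.40 and 1.73 in the order DLD1, HCT116 and HCT8, and for S100A10 they were 1.48, 1.92 and 1.51. On TMM-scaled totals the 3 log2 differences of S100A6 averaged 0.78 ± 0.0313 (SD, n = 3 lines), the narrowest spread of any member, while those of S100A10 averaged 0.81 ± 0.404, with 1.28 in HCT116 and 0.57 and 0.58 in DLD1 and HCT8. S100A13 came next after S100A6 on that scale with 0.61 ± 0.0688, and its folds were 1.55, 1.15 and 1.61 by column totals. By column totals the SD was 0.169 for S100A6 and 0.266 for S100A13, and S100A11 had the narrowest at 0.107. S100A14 was 1.15-fold, 1.20-fold and 1.80-fold higher in DLD1, HCT116 and HCT8.

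S100A4 and S100A3 differed most between lines in their shifts. The SD of the 3 log2 differences was 1.13 for S100A4 and 1.06 for S100A3 by column totals, and 0.971 and 1.11 on TMM-scaled totals. In DLD1, where S100A4 started lowest, it was 4.84-fold higher under hypoxia (95% counting interval 4.37 to 5.38), in HCT8 it was 2.14-fold higher, and in HCT116 it was at 1.01 (0.986 to 1.04) by column totals and at a log2 difference of 0.36 on TMM-scaled totals. The order of the lines, DLD1 below HCT8 and HCT116, did not change at the low end. S100A3 and S100A2 were also uneven, with folds of 3.83, 2.18 and 0.890 for S100A3, the last from 13 and 10 counts, and of 1.40, 1.34 and 3.06 for S100A2.

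S100P and S100A11 were not higher in every pair under either scaling. S100P was at 0.350 of its untreated level in DLD1 (95% counting interval 0.328 to 0.373) and at 0.729 in HCT8 (0.694 to 0.765). S100A11 was at 0.961, 1.05 and 0.908, a mean log2 difference of -0.041 ± 0.107 (SD, n = 3 lines) by column totals, which turned to 0.067 ± 0.302 on TMM-scaled totals, with 0.41 in HCT116. S100A16 was at 1.18 in DLD1, 0.846 in HCT116 and 1.15 in HCT8, and its sign in HCT116 turned from a log2 difference of -0.24 by column totals to 0.10 after TMM scaling.

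**Figure D4:**
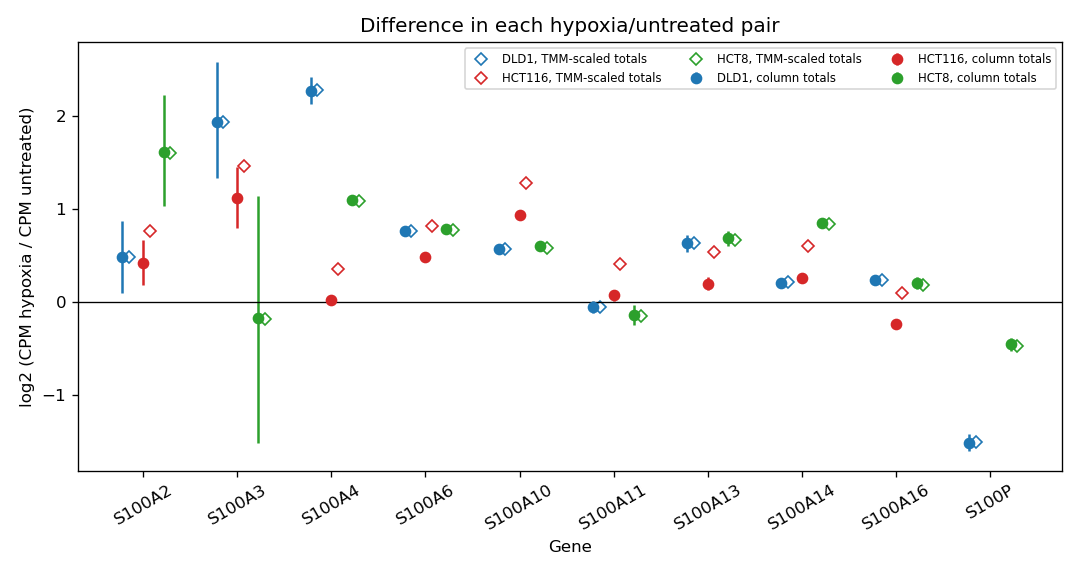
Log2 ratio of CPM under hypoxia to CPM untreated (vertical axis) for each member in DLD1, HCT116 and HCT8; filled circles use column totals with 95% counting intervals and open diamonds use TMM-scaled totals. S100A6 lies within 0.48 to 0.79 in every line by column totals, S100A4 spans 0.02 to 2.28, and S100P has no HCT116 point.

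Across the lines, the edgeR test without a line term called 0 of 10 members and 0% of the 21045 genes, with 0 members and 607 genes at an unadjusted p under 0.05 and with 0 members called by DESeq2 in the same design. The fitted log2 fold changes ran from -0.84 ± 2.23 (SE) for S100P to 1.51 ± 1.34 for S100A3. The spread between libraries was large, with a biological coefficient of variation of 0.876 that dropped to 0.295 once the line entered as a block. With the block, edgeR called 0 of 10 members and 0.95% of all genes, and 8 members had an unadjusted p under 0.05, as did 3884 of the 21045 genes. The fitted log2 fold changes with the block were 0.81 ± 0.17 (SE, adjusted p = 0.0734) for S100A6, 0.83 ± 0.20 (adjusted p = 0.0989) for S100A10, 1.25 ± 0.33 (adjusted p = 0.117) for S100A4 and 0.64 ± 0.17 (adjusted p = 0.119) for S100A13. For S100P it was -0.91 ± 0.30 (adjusted p = 0.166), and for S100A11 it was 0.09 ± 0.19 (adjusted p = 0.832). The median over the members was 0.72, beside 0.03 over all genes.

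The call depended on the tool and on 1 line. DESeq2 with the same block called S100A6 (adjusted p = 3.78e-05), S100A13 (0.00489), S100A10 (0.00837) and S100A4 (0.00888), which made 4 of 10 members against 7.92% of all genes. Without the HCT116 pair, edgeR with the block called S100A4 (log2 fold change 1.67 ± 0.26 SE, adjusted p = 0.00631), S100A6 (0.78 ± 0.17, adjusted p = 0.0304) and S100P (-0.98 ± 0.24, adjusted p = 0.0482), against 3.78% of all genes. Without the DLD1 pair or without the HCT8 pair it called 0 members, with 5 members at an unadjusted p under 0.05 in each case, beside 3375 of 19914 and 1760 of 19739 genes. Without the DLD1 pair the log2 fold change of S100A4 was 0.74 ± 0.28 (adjusted p = 0.227) and that of S100P was -0.38 ± 0.36 (adjusted p = 0.660).

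Other S100 genes were scarce in these lines. Of 11 further family genes, 4 (S100A1, S100A5, S100A8 and S100A9) had enough counts for the CRC lines to be tested. The calgranulins S100A8 and S100A9, which neutrophils and monocytes make in bulk, stayed at 0.159 to 0.912 CPM and at 0.312 to 1.08 CPM over all 8 libraries, and S100B, S100G, S100A7A and S100A7L2 had no counts in any library. S100A5 passed the line test (adjusted p = 0.0323) and moved unevenly under hypoxia, with folds of 0.430 in DLD1, 1.22 in HCT116 and 3.56 in HCT8. Under hypoxia 0 of the 4 tested other S100 genes were called by edgeR without the block (0% of all genes) or with it (0.95%). DESeq2 with the block called 0 of them too (7.92% of all genes). In these 3 fits 0 of the 4 had an unadjusted p under 0.05, beside 607, 3884 and 4082 of 21045 genes. Of 7 genes for S100-fused proteins of the skin barrier, such as FLG, 1 could be tested between lines. It was called by neither edgeR nor DESeq2 (8208 and 9171 of 21045 genes were).

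The known binding partners of the family were read beside it. Of 18 partner genes, 9 passed the line test (39% of all genes did), among them ANXA2 (adjusted p = 0.00506), ANXA1 (0.000291), EZR (0.000208) and SYT1. ANXA1, the annexin partner of S100A11, was lowest in HCT8, as S100A11 was, at 14.4 CPM beside 140 CPM in DLD1 and 374 CPM in HCT116. ANXA2, which S100A10 binds, was at 1062, 1046 and 415 CPM in DLD1, HCT116 and HCT8, an order that S100A10 did not share. EZR, the ezrin gene, stood at 2236 CPM in HCT116, where S100P was under its detection limit, and at 695 and 482 CPM in DLD1 and HCT8.

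Under hypoxia 11 of the 18 partners had higher and 7 lower fitted levels (54.3% of all genes were higher). The median log2 fold change was 0.27, beside 0.06 over all genes. By edgeR 0 of them were called without the block (0% of all genes) or with it (0.95%). An unadjusted p under 0.05 was reached by 1 and 6 of them, beside 607 and 3884 of 21045 genes. DESeq2 with the block called AHNAK (log2 fold change 0.78 ± 0.27 SE, adjusted p = 0.0442), a large scaffold of the S100A10 and annexin A2 complex, which made 1 of 18 partners beside 7.92% of all genes. AHNAK was 1.13-fold, 1.88-fold and 1.70-fold higher in DLD1, HCT116 and HCT8, and ANXA2 was 1.12-fold, 1.24-fold and 1.76-fold higher. CACYBP, the calcyclin-binding protein named after S100A6, was at 0.836, 0.265 and 0.633 of its untreated level, a direction opposite to that of S100A6 in each line. Of the receptors, AGER, which encodes RAGE, had no counts in any library, TLR4 was at 27.9 CPM in HIEC6 and at or under 0.0542 CPM elsewhere, and BSG stood at 443 to 657 CPM in all libraries.

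Genes that sit next to the S100 stretches but belong to other families were compared in the same way. Of 7 such neighbours, 6 could be tested in the CRC lines, and 0 of them passed the edgeR line test (39% of all genes did). In that test 2 of the 6 had an unadjusted p under 0.05, beside 10507 of 21045 genes. DESeq2 called 2 of the 6, beside 9171 of 21045 genes. Under hypoxia all 6 had a lower fitted level (54.3% of all genes had a higher one). The median log2 fold change was -0.45, or -0.48 with the block. By edgeR 0 of the 6 were called without the block (0% of all genes) or with it (0.95%), and 0 by DESeq2 with it (7.92%). In edgeR 0 and 2 had an unadjusted p under 0.05, beside 607 and 3884 of 21045 genes. ILF2 was at 0.858, 0.648 and 0.841 of its untreated level in DLD1, HCT116 and HCT8, and INTS3 was at 0.547, 0.398 and 0.253. SNAPIN was higher in DLD1, at 1.20 (95% counting interval 1.12 to 1.28). It was at 1.07 in HCT8 (0.996 to 1.14), and SLC27A3 was at 1.85 in HCT8 (0.790 to 4.56, from 10 and 16 counts). The intervals of these HCT8 pairs include 1. Whether members and neighbours differed in their response was not tested.

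Across the 8 libraries, which share lines, the members formed no single pattern. On the log2(CPM + 1) scale S100A2 and S100A6 were the most alike pair (Pearson r = 0.933, n = 8 libraries), followed by S100A6 and S100A13 (0.831). S100P ran against S100A3 (-0.790), S100A6 (-0.717) and S100A2 (-0.636), S100A11 ran against S100A14 (-0.751), and S100A6 ran against S100A10 (-0.682). Among 10088 other genes with a mean of at least 10 CPM, the closest to S100A6 was LGALS1 (r = 0.984), the gene of galectin 1, the closest to S100P was SLPI (0.991), an epithelial protease inhibitor, and the closest to S100A14 was ENPP4 (0.995). The nearest gene to S100A10 was LTN1 (0.991) and the nearest to S100A4 was RNF215 (0.972). The correlations of S100A14 rest mostly on 1 library, HIEC6, with 0.353 CPM beside 177 to 490 CPM in all others. Those of S100P rest largely on NCM460 and both HCT116 libraries, at 0.813 CPM or less, beside 23.3 CPM or more elsewhere. All correlations here rest on 5 lines and describe the libraries without a test.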

How the data were processed

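Total RNA of 8 cell line libraries was depleted of ribosomal RNA and sequenced by the authors. What the authors deposited was a single table with whole-number raw counts of 54261 genes. The study's methods name GRCh37, whereas the submitters' processing notes list GRCh38 and HISAT2 2.0.4, so the build of the counts is uncertain. The counter, its annotation, strand setting and treatment of multi-mapped reads are not given in the sources used here. The labels' extraction text names a brain tissue although every sample is labelled a cell line. Summed neural marker levels were 20.5 to 140 CPM, of which MBP alone gave 10.8 to 118 CPM. Of the 8 neural markers, 2 to 4 reached 1 CPM in a library, and SNAP25, RBFOX3, GFAP and NEFL stayed at or under 0.899 CPM.

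From the counts, CPM were computed on column totals, and tests used edgeR 4.0.16 in R 4.3.3 (quasi-likelihood, TMM factors, Benjamini-Hochberg adjustment over all genes tested, threshold 0.05) restricted to genes that reached 10 counts in 2 or more libraries of a fit. Hypoxia was compared with no treatment in the 6 CRC libraries and CRC with normal in the 5 untreated libraries, both without a block. Replicate numbers name cell lines, so they pair the hypoxia and untreated libraries. Deviations from the mean over the CRC lines in each condition correlated at 0.807 to 0.852 for the same line. Between lines the values were -0.594 to -0.0658, and taking deviations from that mean by itself draws them below 0. Fits with the line as a block, DESeq2 1.42.0, upper-quartile scaling, other filters and leaving out each library were alternatives. Members and gene lists were chosen with earlier results of these data known. Named genes were the members, the fixed lists of other S100 genes, partners, receptors, neighbours, hypoxia genes and markers, and the 3 genes most correlated with each member. The test script was tested on simulated data. Transcript lengths came from GENCODE on GRCh37.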

Additional observations from a re-analysis of the deposited data

How the results depend on the processing

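Genes called under hypoxia numbered 0 without a block, 200 with the replicate block, 215 with upper-quartile scaling and the block, 55 by DESeq2 and 1666 by DESeq2 with the block. Leaving out libraries or pairs gave 0 to 738 calls: with the block, 292 without the DLD1 pair, 738 without the HCT116 pair and 6 without the HCT8 pair. CRC against normal gave 0 calls apart from 143 by DESeq2. There the block joins unrelated lines by number and pairs nothing; S100A4 then turned from 1.0 to -0.24 (log2). Calls between CRC lines ran from 4547 to 10147 when 1 library was left out.

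With 1 library or pair left out, hypoxia log2 fold changes ran from -0.12 to 1.79 for S100A2, from -0.23 to 1.84 for S100A6, from -0.37 to 0.59 for S100A11 (-0.093 with the block and no HCT116 pair) from -0.10 to 0.50 for S100A16, from 0.21 to 1.67 for S100A4 and from -1.98 to -0.28 for S100P, and CRC minus normal from -0.42 to 1.44 for S100A10, from -0.51 to 9.04 for S100A14 and from -1.70 to 5.77 for S100P. The ends of the hypoxia ranges of S100A2 and S100A6 came from fits without the block that left out 1 HCT116 library, which unbalanced the lines. With the block and 1 pair left out, S100A2 ran from 0.65 to 1.18 and S100A6 from 0.78 to 0.82. TMM scaling turned S100A16 in the HCT116 pair to 0.10. A filter of 10 counts in every library left out S100P. Of the members' hypoxia values under alternatives, 155 kept their sign and side of the threshold, 7 turned and 7 newly passed. Causes were not tested.

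With 1 library per line and condition, the spread between cultures of 1 line is unknown, and S100P in HCT116 and S100A14 in HIEC6 rest on 2 and 20 counts.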

Other observations

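Among the binding partners, SYT1, whose product binds S100A13, was at 128 CPM in HCT116, 159 CPM in HCT116 under hypoxia and 68.8 CPM in NCM460, and at 0.0781 CPM or less in the DLD1 and HCT8 libraries. IL1A, whose product S100A13 helps to release, was 11.8-fold higher under hypoxia in DLD1 (95% counting interval 4.36 to 45, from 4 and 53 counts). IL1A was 1.97-fold higher in HCT116 (0.923 to 4.48) and 3.75-fold in HCT8 (2.27 to 6.43).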
